A study of Mus musculus with 6 samples.

Results

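Galectins are secreted and cytosolic lectins that bind beta-galactoside sugars on glycoproteins and glycolipids, and Lgals3bp codes for a secreted glycoprotein that galectin-3 binds. The members were chosen by gene symbol, with earlier results of these data known: Lgals1, Lgals2, Lgals3, Lgals3bp, Lgals4, Lgals7, Lgals8, Lgals9 and Lgals12. These 9 genes are read by 13 probe sets, of 18193 named genes and 45037 probe sets tested. Stria vascularis, which lines the lateral wall of the cochlea and supplies endolymph with K+, was compared between adult mice of strain 129S6 that lack the anion exchanger pendrin (Slc26a4-/-) and their wild-type controls (Slc26a4+/+). RNA was hybridized to 3 Affymetrix mouse expression chips per genotype. By the study's methods the Slc26a4-/- mice were P153 ± 1 and the Slc26a4+/+ mice P148 ± 3, the mice were not perfused, and the RNA on each chip came from a pool of 2 animals after 2 rounds of amplification. The spread between chips is therefore a spread between pools.

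Galectins fall into a prototype form with a single sugar-binding domain (Lgals1, Lgals2, Lgals7), a chimeric form with a self-associating tail (Lgals3) and a tandem form with a pair of such domains (Lgals4, Lgals8, Lgals9, Lgals12). By cross-linking sugars they cluster receptors at the cell surface, and inside the cell some of them bind glycans exposed on damaged lysosomes. Galectin-3, also known as the Mac-2 antigen, is abundant in activated macrophages and is widely used to stain them.

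Lgals3 and Lgals9 rose in Slc26a4-/- stria vascularis, and no galectin passed the test as lower, which does not show that none fell. By the only probe set named for it here, Lgals3 was at least 14.1-fold higher in Slc26a4-/-, and Lgals9 was 2.36-fold higher. Lgals1, Lgals3bp and Lgals8 were above background in both genotypes, with log2 fold changes of 0.40 to 0.58 in their brighter probe sets that did not pass the test. Lgals4, Lgals7 and Lgals12 were below background on every array, and so was Lgals2 except on 1 Slc26a4+/+ array with 1 of its probe sets. The values below are signals on a linear scale, with 1 value per probe set and array. Background was set per array at the 95th percentile of its 44 probe sets for olfactory receptors. Changes are log2 fold changes of Slc26a4-/- over Slc26a4+/+, and adjusted p-values come from limma with Benjamini-Hochberg adjustment over all 45037 probe sets, at a threshold of 0.05.

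**Figure D1:**
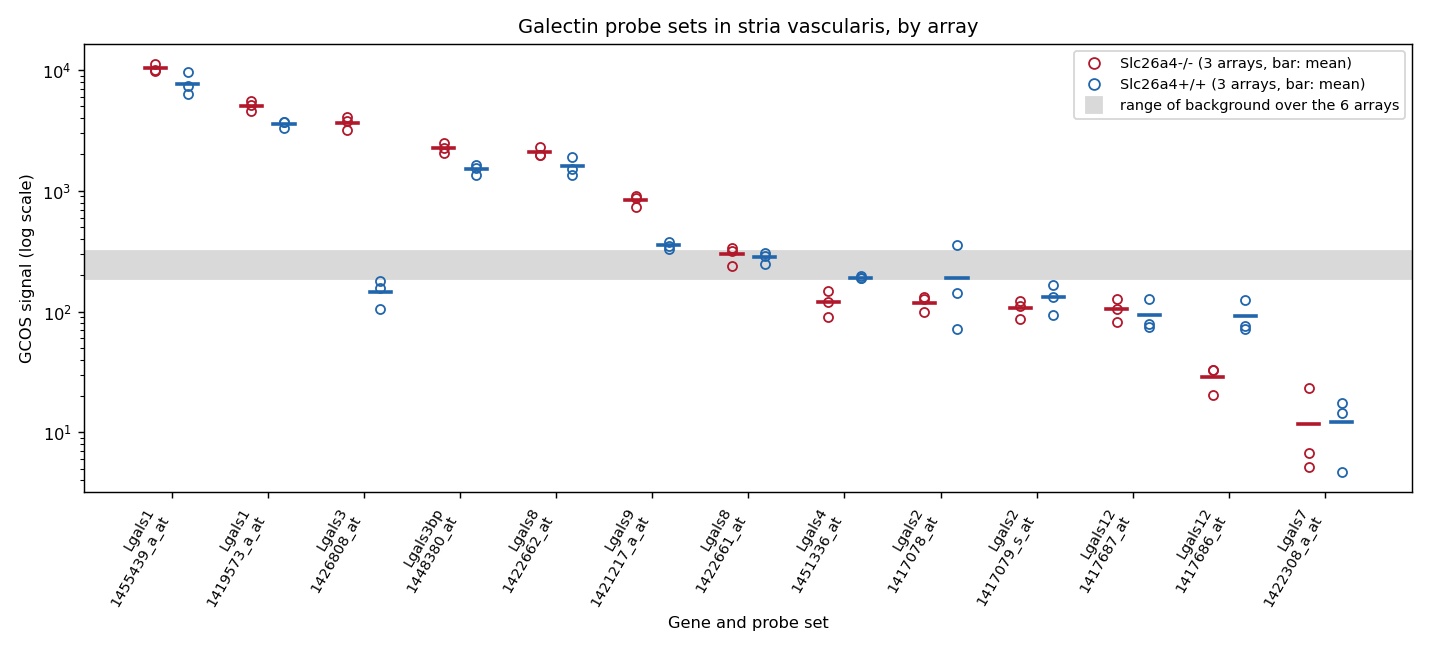
Signal (log scale) of the 13 galectin probe sets on each array. Circles are the 3 arrays of Slc26a4-/- (red) and of Slc26a4+/+ (blue), bars are their means, and the grey band spans the background of the 6 arrays, 187.1 to 319.2. For Lgals3 the Slc26a4-/- arrays sit above the band and the Slc26a4+/+ arrays below it, whereas for Lgals9 the arrays of both genotypes sit above it and apart.

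The arrays of both genotypes were alike in mean signal (666.9 to 670.9 in Slc26a4-/- and 665.8 to 725.3 in Slc26a4+/+) and differed more in background (187.1 to 213.8 in Slc26a4-/- and 199.7 to 319.2 in Slc26a4+/+). Of all probe sets, 42 to 43.3% were above background in Slc26a4-/- and 35.7 to 42% in Slc26a4+/+. Counts above background are thus tilted towards Slc26a4-/-. The ratio of 3' to 5' signal of Gapdh, a measure of RNA integrity after amplification, was 3.34 to 3.8 in Slc26a4-/- and 2.25 to 10.5 in Slc26a4+/+. Slc26a4 itself had signals of 520.2, 717 and 618.5 in Slc26a4-/-, against 1354, 1262 and 793 in Slc26a4+/+ (log2 fold change -0.85, adjusted p = 0.119), and since the place of its probe set relative to the deletion is not known here, it does not check the labels. Xist ranged over 5529.6 to 5863 in Slc26a4-/- and 771 to 3358 in Slc26a4+/+, and the Y-linked Eif2s3y over 3.1 to 3.6 in Slc26a4-/- and 639.9 to 1541 in Slc26a4+/+, so that the sex of the pools and the genotype cannot be told apart. The markers of the labelled tissue were present, with all 6 marginal cell markers and all 3 basal cell markers above background in both genotypes, as were 7 of 7 intermediate cell markers in Slc26a4-/- and 5 of 7 in Slc26a4+/+. Some of them moved as well. Of the 6 marginal cell markers 2, Kcne1 and Atp13a5, were lower in Slc26a4-/- (beside 0.803% of all genes) and 0 higher (beside 1.88%). Their summed signal was 28337 to 29801 in Slc26a4-/- and 40979 to 50549.6 in Slc26a4+/+. Of the 7 intermediate cell markers 2, Tyrp1 and Pmel, were higher (beside 1.88%) and 0 lower (beside 0.803%). Their summed signal was 53459 to 55102 in Slc26a4-/- and 46194 to 58809.5 in Slc26a4+/+. The part of marginal and intermediate cells in the galectin signals was not tested.

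Of the 13 galectin probe sets 2 were higher, against 1.19% of all probe sets, and 0 were lower, against 0.54% of all. The study had already listed Lgals3 as higher on these arrays, so the count includes a known change. At an unadjusted p under 0.05, limma gave 6 higher, against 6.15% of all probe sets, and 2 lower, against 5.77%. The paired test that the methods name, run with arrays paired by replicate number, gave 3 higher, against 3.96% of all probe sets, and 1 lower, against 4.88%. After adjustment it called 0 of all 45037 probe sets, so its 0 of 13 is not a result about galectins. The 3 arrays of Slc26a4-/- lay wholly above those of Slc26a4+/+ in 6 galectin probe sets, against 8.46% of all probe sets, and wholly below in 2, against 9.4% of all. With each gene read by its brightest probe set (on the mean of log2 signals), 2 of 9 were higher (1.88% of all genes) and 0 lower (0.803% of all genes). The median log2 fold change was 0.40 over the 9 galectin genes and -0.03 over all genes. The methods also name a rule without a test, a ratio of mean signals past 1.3. By the ratio alone, 4 of the 9 genes were higher, Lgals1, Lgals3, Lgals3bp and Lgals9, against 16% of all genes, and 3 were lower, Lgals2, Lgals4 and Lgals12, against 21.7% of all genes. Of the 3 lower ones, Lgals4 and Lgals12 were below background on every array and Lgals2 was above it on 1.

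Lgals3 codes for galectin-3, the chimeric galectin, which binds glycans at the surface of macrophages and on damaged lysosomes. Its probe set 1426808_at had signals of 3767, 4049.8 and 3164 in Slc26a4-/-, against 157, 104.5 and 178.5 in Slc26a4+/+. Every Slc26a4-/- array was above its background and every Slc26a4+/+ array below it, so the Slc26a4+/+ signals are only an upper limit. The study's present calls for Lgals3 cover a further probe set, which its own fold averages in, and some of these calls were in Slc26a4+/+. Only 1426808_at carried the symbol Lgals3 alone here, so the values are those of that probe set. The signal averaged 3661 ± 452 in Slc26a4-/- and 147 ± 38.1 in Slc26a4+/+ (SD, n = 3 each). The log2 fold change was 4.67 (SE 0.22, adjusted p = 1.16e-05, limma), with a 95% confidence interval of 4.18 to 5.16. Since Slc26a4+/+ lay below background, the fold is given as a bound, the mean log2 signal of the Slc26a4-/- arrays over that of the Slc26a4+/+ arrays with each Slc26a4+/+ signal raised to the background of its array: at least 14.1-fold.

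Lgals9 codes for galectin-9, a tandem galectin with several receptors on immune cells. Its probe set 1421217_a_at had signals of 906, 728 and 879 in Slc26a4-/-, against 380.3, 328.4 and 351.2 in Slc26a4+/+. All 6 arrays were above background and the genotypes did not overlap. The log2 fold change was 1.24 (SE 0.17, adjusted p = 0.00716, limma), with a 95% confidence interval of 0.85 to 1.63. Lgals9 ranked 224th by p among all probe sets. The call was lost without Slc26a4-/- replicate 1 (log2 fold change 1.18, adjusted p = 0.0664), without Slc26a4-/- replicate 3 (1.20, adjusted p = 0.075), with the signal of Xist as a covariate (1.41, adjusted p = 0.295), and when limma was fitted without the trend of the spread on the signal (adjusted p = 0.111). Over all probe sets these fits called 257, 219, 27 and 114, against 778 in the fit used here.

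**Figure D2:**
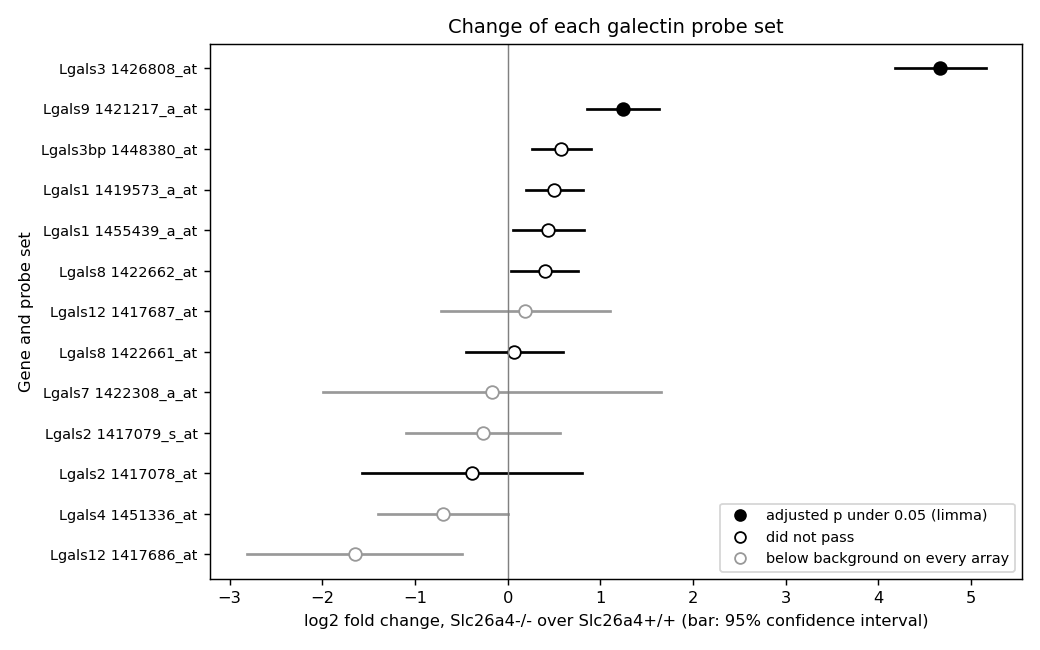
The log2 fold change (Slc26a4-/- over Slc26a4+/+) of each galectin probe set with its 95% confidence interval from limma, n = 3 arrays each. Filled points passed an adjusted p of 0.05, Lgals3 at 4.67 and Lgals9 at 1.24, and grey points were below background on every array.

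The promoters of the genes that rose are shown for what they do and do not share. They are the 250 bases before the RefSeq gene start, in the build GRCm38.p6, read 5′ to 3′ on the strand of the gene. Lgals3 lies on the plus strand (chr14:47373610-47373859) and Lgals9 on the minus strand (chr11:78984925-78985174), and capitals mark an interferon response element.
Lgals3: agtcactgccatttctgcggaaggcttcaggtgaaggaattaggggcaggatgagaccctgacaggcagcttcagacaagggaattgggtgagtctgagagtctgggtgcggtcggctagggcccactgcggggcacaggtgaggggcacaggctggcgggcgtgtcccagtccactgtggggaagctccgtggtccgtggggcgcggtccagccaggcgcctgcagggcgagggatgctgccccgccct
Lgals9: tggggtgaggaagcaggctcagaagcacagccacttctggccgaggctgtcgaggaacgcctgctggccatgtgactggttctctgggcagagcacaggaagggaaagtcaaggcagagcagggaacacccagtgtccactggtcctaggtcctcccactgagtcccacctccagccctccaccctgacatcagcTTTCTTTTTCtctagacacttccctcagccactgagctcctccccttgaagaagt
The Lgals3 promoter is 66% G and C with 13 CpG dinucleotides, more than 68.5% of the 32841 mouse promoters of the same length. The Lgals9 promoter is 58.4% G and C with 3 CpG dinucleotides, more than 29% of promoters. The median promoter has 52.4% and 6. The interferon response element was searched as GAAA, any 2 bases and GAAA, on both strands, and stands in the Lgals9 promoter 55 to 46 bases before the start, on the strand opposite to the gene. It is in 2.98% of all promoters and in 1 of the 7 galectin promoters that RefSeq gave here (Lgals2, Lgals3, Lgals3bp, Lgals4, Lgals7, Lgals8 and Lgals9). Of 4 other motifs, AGGAAGT of PU.1 and other ETS factors (7.69% of all promoters), TGANTCA of AP-1 (6.75%), CACGTG of CLEAR and other E-boxes (6.02%) and the TATA box TATAAA (12.4%), none was found in the 7. These matches describe the letters in these windows and do not show binding.

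Markers of macrophages moved with Lgals3 and Lgals9. Of 13 markers measured, 8 were higher in Slc26a4-/- (Cd68, Ptprc, Mpeg1, Lyz2, C1qa, C1qb, Cx3cr1 and Aif1), beside 1.88% of all genes, and 0 lower, beside 0.803%. Their summed signal was 33806 to 35795 in Slc26a4-/- and 6486 to 8674 in Slc26a4+/+, a ratio of means of 4.41. Cd68, Ptprc, Mpeg1, Lyz2 (as Lyzs), C1qa and C1qb had already been listed as higher by the study on these arrays. The count of markers thus includes known changes. Cd68 and Aif1 were below background on every Slc26a4+/+ array, and Ptprc was above it there only in replicate 1. Csf1r, Adgre1 and Cd14 were above background on every array and higher in Slc26a4-/- without overlap. They did not pass (adjusted p = 0.0501, 0.0513 and 0.217, limma). Itgam and Fcgr1, each by its brightest probe set, were below background on every array. The study's present calls, a different measure, did detect Fcgr1 in Slc26a4-/-, and its list gave the gene as higher there. Markers of spiral ligament fibrocytes, cells of the neighboring tissue, also moved: 4 of 7 were higher in Slc26a4-/- (beside the same 1.88%) and 0 lower, with a summed signal of 12890 to 15387 in Slc26a4-/- and 6039 to 11392 in Slc26a4+/+. The part of these cells in the galectin signals was not tested. Fewer or more cells of a type and less or more RNA per cell cannot be told apart in RNA of a whole tissue. Neutrophil markers (4 of 4) and T and B cell markers (4 of 4 measured) were below background on every array.

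The 5 genes whose signals followed Lgals3 most closely over the 6 arrays were Lyz2, Crhbp, C1ra, Ttr and Lyz1. The measure was the root mean square difference of log2 signals, each probe set centered on its own mean, over 16728 probe sets with a single gene symbol that were above background on 3 or more arrays. Because they were chosen for their likeness to Lgals3, their values are a description without a test. Lyz2, the lysozyme of macrophages and a macrophage marker above, was closest, with a difference of 0.307 and signals of 10473, 9718 and 10180 in Slc26a4-/-, against 572, 481.7 and 495.2 in Slc26a4+/+. Crhbp, which codes for the binding protein of corticotropin-releasing hormone, differed by 0.382 (4063, 4685 and 3940 in Slc26a4-/-, against 317.6, 223 and 263.8 in Slc26a4+/+). C1ra, a protease that starts the classical complement pathway, differed by 0.441 and had signals of 352.5, 211.5 and 290.8 in Slc26a4-/-, against 19.1, 6.1 and 10.8 in Slc26a4+/+, the last 3 all below background. Ttr, the thyroxine carrier transthyretin, differed by 0.502 and had signals of 3192, 3284 and 3122 in Slc26a4-/-, against 186, 229.7 and 268 in Slc26a4+/+, which were again all below background. The distances of C1ra and Ttr, like the profile of Lgals3 itself, thus rest partly on signals that are not above background. The same holds for Crhbp, which was above background on only 1 of the Slc26a4+/+ arrays. Lyz1, whose sequence is close enough to Lyz2 that their probe sets may share transcripts, differed by 0.518 (13807, 13547 and 13182 in Slc26a4-/-, against 327, 623 and 402 in Slc26a4+/+).

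**Figure D3:**
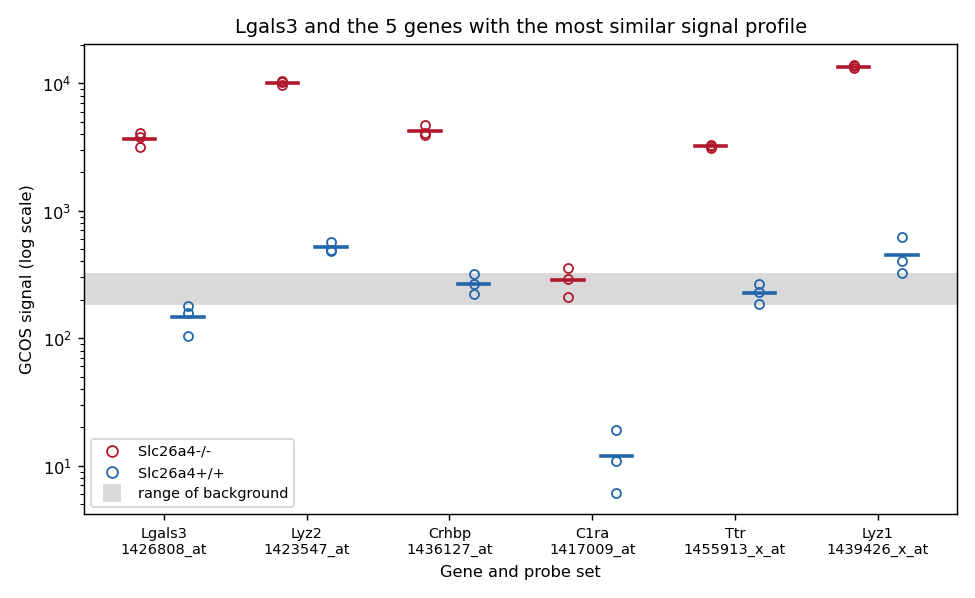
Signal (log scale) on each array of Lgals3 and the 5 genes nearest to it in profile, with Slc26a4-/- in red, Slc26a4+/+ in blue, bars at the means of 3 arrays and the range of background in grey. In each gene the genotypes do not overlap, and Lyz2, Lyz1, Crhbp and Ttr stand well above the band in Slc26a4-/- while C1ra lies within or just above it there.

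Lgals3bp, the secreted partner of galectin-3, had signals of 2242, 2075 and 2481 in Slc26a4-/-, against 1641, 1545 and 1365 in Slc26a4+/+ (probe set 1448380_at). The genotypes did not overlap and all 6 arrays were above background. The log2 fold change of 0.58 (SE 0.14) did not pass (adjusted p = 0.088, limma), with a 95% confidence interval of 0.26 to 0.90. It passed without Slc26a4+/+ replicate 1 (0.64, adjusted p = 0.0386), in a fit that called 1714 of all probe sets, against 778 in the fit used here. In contrast to Lgals3 by its probe set here, Lgals3bp was thus above background in Slc26a4+/+ as well.

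Lgals1 codes for galectin-1, a prototype galectin of mesenchymal and vascular cells. Its brighter probe set 1455439_a_at had signals of 9804, 11145 and 10089.6 in Slc26a4-/-, against 6298, 7319 and 9580.4 in Slc26a4+/+. The other, 1419573_a_at, had signals of 4584, 5567 and 5107 in Slc26a4-/-, against 3288, 3722 and 3727 in Slc26a4+/+. In both the genotypes did not overlap, although Slc26a4+/+ replicate 3 came close to the Slc26a4-/- arrays in the brighter one. The log2 fold changes were 0.44 (95% confidence interval 0.06 to 0.82, adjusted p = 0.335, limma) and 0.50 (0.20 to 0.81, adjusted p = 0.125), and neither passed. Endothelial cell markers, of which 5 of 6 were above background in Slc26a4-/- and 4 of 6 in Slc26a4+/+, had summed signals of 2802 to 3186 in Slc26a4-/- and 1625 to 2242 in Slc26a4+/+, with Pecam1 below background on every array. Of the 6, 0 passed the test in limma, beside 1.88% of all genes higher and 0.803% lower. At an unadjusted p under 0.05, 2 were higher, Kdr and Vwf, beside 8.48% of all genes. The part of endothelial cells was not tested.

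Lgals8 codes for galectin-8, a tandem galectin that binds exposed glycans on damaged vesicles and recruits the autophagy receptor of the Calcoco2 gene. Its brighter probe set 1422662_at had signals of 1989.8, 1966 and 2322 in Slc26a4-/-, against 1921, 1523 and 1355 in Slc26a4+/+. The genotypes did not overlap, but the gap was small and the log2 fold change of 0.40 (95% confidence interval 0.03 to 0.76, adjusted p = 0.364, limma) did not pass. The dimmer probe set 1422661_at was near background, with signals of 237, 337.8 and 317.8 in Slc26a4-/-, against 303.1, 249.9 and 289.5 in Slc26a4+/+. It was above background on 3 arrays of Slc26a4-/- and 1 of Slc26a4+/+, the genotypes overlapped, and its log2 fold change was 0.07 (-0.45 to 0.59). The backgrounds of Slc26a4+/+ replicates 2 and 3, 269.5 and 319.2, were higher than those of the Slc26a4-/- arrays.

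The remaining galectins are known from other tissues, Lgals2 and Lgals4 from the gut, Lgals7 from stratified epithelium and Lgals12 from fat. All 4 intestinal epithelium markers and all 3 adipocyte markers measured were below background on every array. Of the 4 stratified epithelium markers Krt14 and Ivl were below background throughout, Krt5 was above it on 1 Slc26a4-/- array, and Krt10 was above it on 3 arrays of Slc26a4-/- (548 to 610.2) and 2 of Slc26a4+/+ (286 to 432 over all 3). Lgals4 (1451336_at) had signals of 91.1, 149 and 120.4 in Slc26a4-/-, against 188, 190.2 and 196 in Slc26a4+/+, lower without overlap but below background throughout (log2 fold change -0.70, adjusted p = 0.419, limma). A near copy, Lgals6, which some strains carry, has no probe set named here and cannot be told apart from Lgals4. Lgals12 had a dim probe set 1417686_at with signals of 33, 20.6 and 32.7 in Slc26a4-/-, against 71.8, 76.3 and 126 in Slc26a4+/+ (-1.65, adjusted p = 0.204), whereas those of 1417687_at overlapped, 81.9, 105 and 128 in Slc26a4-/- and 74.8, 78.8 and 126 in Slc26a4+/+ (0.19, adjusted p = 0.904). All were below background, where a difference between signals is not a measured fold. Lgals7 (1422308_a_at) ranged over 5.2 to 23.5 in Slc26a4-/- and 4.7 to 17.4 in Slc26a4+/+, below background on every array. Lgals2 was below background on all arrays with 1417079_s_at, which ranged over 87.5 to 123 in Slc26a4-/- and 94.6 to 167 in Slc26a4+/+, and with 1417078_at had signals of 126, 132 and 98.5 in Slc26a4-/-, against 143, 71.3 and 358 in Slc26a4+/+, of which only that of Slc26a4+/+ replicate 3 was above background. In all, 5 of the 9 genes were above background on at least 2 arrays of a genotype, and of the 13 probe sets 5 were above it on every array and 5 below it on every array.

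Among galectin-like genes outside the family proper, Lgalsl, which codes for a galectin-related protein without sugar binding, was above background on all arrays. Its probe set 1451313_a_at had signals of 2335, 2451 and 2748 in Slc26a4-/-, against 1695, 1809 and 1432 in Slc26a4+/+ (log2 fold change 0.61, SE 0.15, adjusted p = 0.0778, limma). The other, 1424318_at, had signals of 1702, 1987 and 1893 in Slc26a4-/-, against 1156, 1335 and 970.5 in Slc26a4+/+ (0.70, SE 0.16, adjusted p = 0.0655). Both kept the genotypes apart and neither passed. Grifin, a galectin-like protein of the lens, was below background on every array.

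Genes whose proteins bind galectins were counted by their brightest probe set. Of 21, 4 were higher in Slc26a4-/-, beside 1.88% of all genes, and 0 lower, beside 0.803% (limma). Of these 4, Ptprc had already been listed as higher by the study on these arrays. At an unadjusted p under 0.05 limma gave 7 higher, beside 8.48% of all genes, and 0 lower, beside 6.42%. The paired test by replicate number gave 5 higher, beside 5.53% of all genes, and 0 lower, beside 5.23%. The median log2 fold change was 0.27, 13 of the 21 were above background and 8 were below it on every array. Ptprc, the leukocyte phosphatase CD45 whose glycans bind galectin-1 and galectin-3, had signals of 919, 919 and 1001 in Slc26a4-/-, against 284, 200 and 194 in Slc26a4+/+ (log2 fold change 2.09, adjusted p = 9.47e-04), and is, like Itgam, also one of the macrophage markers above. In Slc26a4+/+ Ptprc was above background on 1 array only, so its fold rests partly on signals that are not above background. Nrp1, a coreceptor of vascular endothelial growth factor that binds galectin-1, had signals of 2291, 2264 and 2334 in Slc26a4-/-, against 1067, 889 and 678 in Slc26a4+/+ (1.41, adjusted p = 0.0037). Slc3a2, the CD98 heavy chain and a partner of galectin-3, had signals of 5635, 6314 and 6199 in Slc26a4-/-, against 3807, 3599.6 and 3442 in Slc26a4+/+ (0.74, adjusted p = 0.0188). The genotypes did not overlap in these 3 genes. The count of 4 became 2 without any 1 of the Slc26a4-/- arrays or without Slc26a4+/+ replicate 2, 1 without the trend and 0 with Xist as a covariate. Over all probe sets these fits called 257, 266, 219, 384, 114 and 27, against 778 in the fit used here.

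Cd44, the hyaluronan receptor that galectin-9 binds, was the other partner that rose, with signals of 4665, 4532 and 5013 in Slc26a4-/-, against 2092, 2519 and 3063 in Slc26a4+/+ (0.91, adjusted p = 0.0217, limma). Cd44, Havcr2, Trem2 and Lamp1 are named after their values were seen. Havcr2, the TIM-3 receptor to which galectin-9 binds, was below background on every array, with 103 to 162 in Slc26a4-/- and 37.7 to 68.7 in Slc26a4+/+. Trem2, a microglial and macrophage receptor for galectin-3, was also below background throughout, with 10.8 to 46.9 in Slc26a4-/- and 44.9 to 57.1 in Slc26a4+/+. Lamp1, a lysosomal membrane protein rich in glycans that galectin-3 binds, was bright in both genotypes, with 13617 to 14481 in Slc26a4-/- and 12331 to 18673 in Slc26a4+/+ (log2 fold change -0.08, adjusted p = 0.895).

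**Figure D4:**
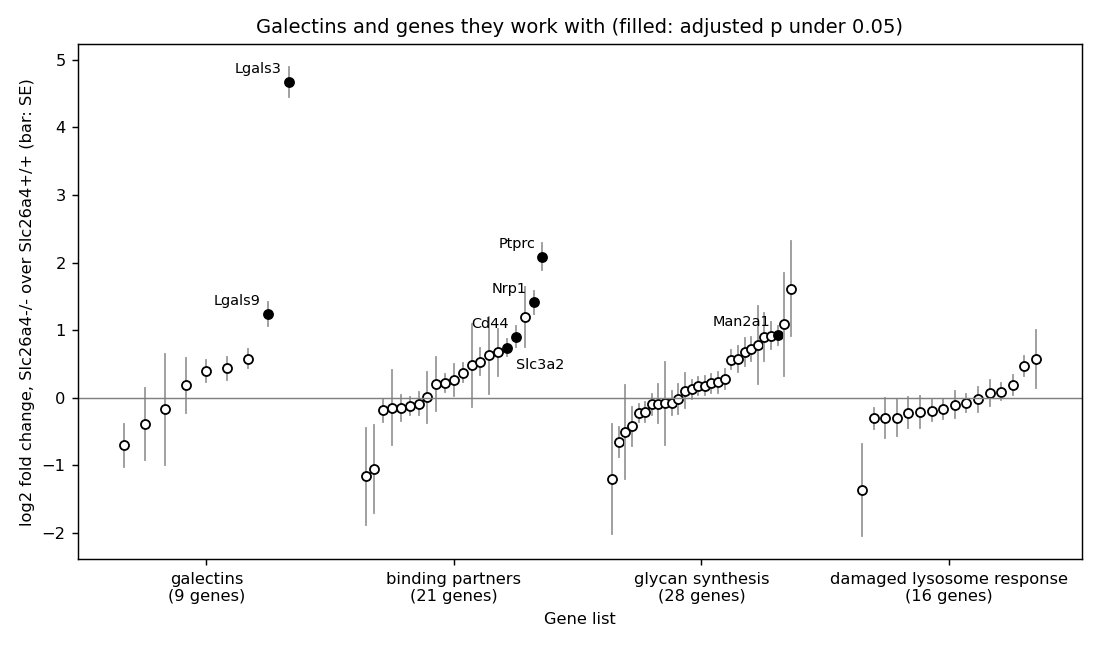
The log2 fold change (Slc26a4-/- over Slc26a4+/+, bars SE) of the galectins and of 3 lists of genes around them, each gene by its brightest probe set and ordered by its change within its list. Filled points passed an adjusted p of 0.05: 2 of 9 galectins, 4 of 21 binding partners, 1 of 28 glycan synthesis genes and 0 of 16 genes of the damaged lysosome response.

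Enzymes that build or cap the N-acetyllactosamine glycans bound by galectins were measured for 28 of 28 genes, 22 of them above background. Of the 28, 1 was higher, beside 1.88% of all genes, and 0 lower, beside 0.803% (limma). At an unadjusted p under 0.05 limma gave 8 higher (8.48% of all genes) and 1 lower (6.42%), and the paired test by replicate number 5 higher (5.53%) and 2 lower (5.23%). Their log2 fold changes had a median of 0.18. Man2a1, a Golgi mannosidase that opens the way to complex N-glycans, had signals of 2516, 1948 and 2160 in Slc26a4-/-, against 1145, 1140.2 and 1190.1 in Slc26a4+/+ (log2 fold change 0.92, SE 0.14, adjusted p = 0.0117). The next smallest p-values did not pass, those of Gcnt2, which branches poly-N-acetyllactosamine chains (417 to 432 in Slc26a4-/-, against 210.2 to 254 in Slc26a4+/+, adjusted p = 0.0611), and of B4galt5, a galactosyltransferase (556 to 627 in Slc26a4-/-, against 331 to 392 in Slc26a4+/+, adjusted p = 0.0862). The call of Man2a1 was lost when the arrays were centered on their medians, and the list gave 0 without Slc26a4-/- replicate 1, Slc26a4-/- replicate 3 or Slc26a4+/+ replicate 2 and 3 without Slc26a4+/+ replicate 1.

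Genes of the response to damaged lysosomes, in which galectin-3 and galectin-8 take part, were measured for 16 of 17, 15 of them above background. Of the 16, 0 were higher and 0 lower (limma), beside 1.88% and 0.803% of all genes. At an unadjusted p under 0.05 limma gave 1 higher and 0 lower (8.48% and 6.42% of all genes). The paired test by replicate number gave 0 (5.53% and 5.23%). Without Slc26a4+/+ replicate 1 limma gave 1 after adjustment, in a fit that called 1714 of all probe sets. The median log2 fold change was -0.13. Sqstm1, the autophagy receptor p62, had signals of 4869, 5423 and 5561 in Slc26a4-/-, against 4338, 3926 and 3267 in Slc26a4+/+, without overlap (log2 fold change 0.47, adjusted p = 0.204). Calcoco2, the receptor NDP52 that galectin-8 recruits, was below background on every array. Map1lc3b, the autophagosome protein LC3B, had signals of 8957 to 9340.3 in Slc26a4-/- and 9193 to 13045 in Slc26a4+/+ (-0.30, adjusted p = 0.508). An adjusted p above the threshold does not show that these transcripts were unchanged.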

How the data were processed

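Stria vascularis RNA of 3 Slc26a4-/- and 3 Slc26a4+/+ pools was measured on 6 arrays. For each array the authors deposited an intensity per probe set, on a linear scale, that GCOS had background-corrected and scaled (GCOS version: not given in the sources used here). Such summaries hold no detection calls, so background was taken from olfactory receptor probe sets. Of 45101 probe sets 64 controls were left out, and of the 45037 tested 34945 had 1 gene symbol, 932 several (not named) and 9160 none. Signals under 1, 172 values, were set to 1, and log2 signals were fitted by limma 3.58.1 in R 4.3.3 (lmFit, eBayes with a trend), two-sided. The members and lists were chosen with earlier results of these data known.

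Named genes were all galectin and galectin-like probe sets, the 3 smallest p-values of each other list and the 5 genes nearest to Lgals3. A gene with several probe sets was read by the brightest of them (highest mean of log2 signals). Promoter letters were taken from RefSeq (GRCm38.p6). Lgals1 and Lgals12 promoters and galectin proteins were not analysed here. The arrays give no date or slide that was used as a batch. Alternatives changed the floor, filter, scaling, spread model, weights, block, covariate, test or arrays.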

Additional observations from a re-analysis of the deposited data

How the results depend on the processing

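Lgals3 passed under 16 of 17 alternatives, with log2 fold changes of 4.15 to 5.35, and was lost in the paired t-test by replicate number (adjusted p = 0.428), which called 0 of all 45037 probe sets and so says nothing about the stability of any result here. Lgals9 kept its direction in all 17 (1.11 to 1.41) and was lost in 5: without the trend (adjusted p = 0.111), with Xist as a covariate (0.295), in that paired t-test (0.402) and without Slc26a4-/- replicate 1 or 3. The galectin probe sets higher, 2 in the report, were 1 without the trend or with Xist, 6 with array weights (of 4084 called in all), 0 in the t-test and 1 to 3 when an array was left out. Array weights added both Lgals1 probe sets (adjusted p = 0.0203 and 0.0163), Lgals3bp (0.00964) and Lgals8 1422662_at (0.0377). By gene the counts were 1, 1, 5 and 0, 7 by the 1.3-fold ratio, and 1 to 3. None of these fits called a galectin probe set lower.

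For the binding partners, 4 in the report, the counts were 1 without the trend, 0 with Xist, 0 in the t-test, 2 with a gene's probe sets averaged, 3 with median centering, 6 with array weights and 2 to 4 when an array was left out, with 2 without any 1 of the Slc26a4-/- arrays or Slc26a4+/+ replicate 2. For glycan synthesis, 1 in the report, they were 2 with dim probe sets (mean signal under 100) left out, 0 with median centering, the trend left out, Xist or the t-test, 6 with array weights and 0 to 3 when an array was left out. For the damaged lysosome response they were 1 with array weights and 0 to 1 when an array was left out, the 1 being without Slc26a4+/+ replicate 1. Calls over all probe sets shifted too, from 778 in the report to 114 without the trend, 27 with Xist and 448 with median centering. They were 219 to 1714 when an array was left out. The cause of these shifts was not tested.

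The sign turned in 3 dim probe sets that had not passed: Lgals2 1417078_at (0.38 with array weights, 1.12 with Xist, -0.94 to 0.22 when an array was left out), Lgals7 (0.81, 1.51 and -0.83 to 0.26) and Lgals8 1422661_at (-0.028 to 0.23 when an array was left out). The replicate block called 832 probe sets, 2 of them galectins, Lgals3 and Lgals9. Same-numbered arrays correlated at 0.0939, 0.0267 and 0.0287 in their deviations, so the numbers were not taken as pairs. Over all probe sets 68.8% of calls were higher as deposited and 80.1% after median centering, where the median log2 fold change was 0.02 instead of -0.06. With 3 arrays per genotype, the number of arrays limits the precision, and no fold is measured for probe sets below background.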
